A study of Danio rerio with 4 samples.

Results

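Satellites are H3K4me3 peaks that were listed in DN hearts only and lay near, without overlapping, a peak listed in Ctrl hearts. A DN peak was taken as a satellite when it lay on chromosomes 1 to 25, was under 3000 bp wide, overlapped no Ctrl peak and left a gap of under 1000 bp to the nearest Ctrl peak, and chromosome 4 from position 27000000 on was left out. These limits gave 1488 satellites among 33972 DN peaks. The satellites were thus chosen by the positions of peaks in both lists, so their gap, their width and their absence from the Ctrl list are descriptions. Within these limits 23325 DN peaks, or 68.7%, overlapped no Ctrl peak (DN-Specific), and the satellites made up 6.38% of them (95% interval 6.07 to 6.70). They covered 0.949 Mb, which is 7.01% of the 13.5 Mb covered by DN-Specific peaks. The width limit left out 8 further peaks and the chromosome 4 limit 76.

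The peaks came from chromatin immunoprecipitation sequencing (ChIP-seq) of zebrafish ventricles taken 7 days after their amputation (7 dpa). Both groups of adult fish carried a switchable transgene, in which the ubiquitous ubi promoter drives DN-xBrg1, a dominant-negative *Xenopus* Brg1, only after a loxp-DsRed-STOP-loxp cassette is removed. DN hearts also carried kdrl:CreER, a tamoxifen-activated recombinase driven from an endothelial promoter, while Ctrl hearts had no recombinase, and both groups received 4-hydroxytamoxifen (4-HT), which the labels give as lasting 3 days ahead of the amputation. Each group had 1 H3K4me3 library, made from about 25 pooled hearts, and 1 input library that was not analysed here. Whole ventricles were used and endothelial cells make up only part of them, so a change in a few cells cannot be told apart from a change in the make-up of the tissue. With 1 library per group no difference has a replicate check and no test between the groups was possible. Intervals are exact 95% intervals for counting error alone, with no allowance for variation between hearts or libraries.

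H3K4me3 is a trimethylated form of histone H3 found on nucleosomes around the start sites of active genes. The nucleosome at the start site itself is often missing, so the mark tends to flank a depleted centre, and it spreads over longer stretches at some highly used genes. Brg1 is the ATPase of the SWI/SNF complex, which slides and evicts nucleosomes. No gene annotation or genome sequence on GRCz11, the build of the lists, was used here, so satellites are given by position and their relation to promoters was not analysed here.

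The gap between a satellite and its Ctrl neighbour had a median of 715 bp (95% interval 698 to 730), with quartiles of 426 and 856 bp. Its distribution had 2 levels. In each of the 6 bins of 100 bp below 600 bp there were 74 to 101 satellites. From 700 to 1000 bp the bins held 255, 270 and 255. Pooled over all neighbours, the satellites thus lay mostly at some distance from the neighbour rather than against it. Where the neighbour overlapped no DN peak, the fullest bin was instead the one below 100 bp, with 86. The satellites as a whole did not thin out towards the 1000 bp limit either. From 750 to 1000 bp there were 262 DN-Specific peaks under 3000 bp wide per 100 bp of gap, from 1000 to 2000 bp there were 238, from 2000 to 3000 bp 182 and from 5000 to 10000 bp 69.98. The limit therefore does not mark a step in these data.

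**Figure D1:**
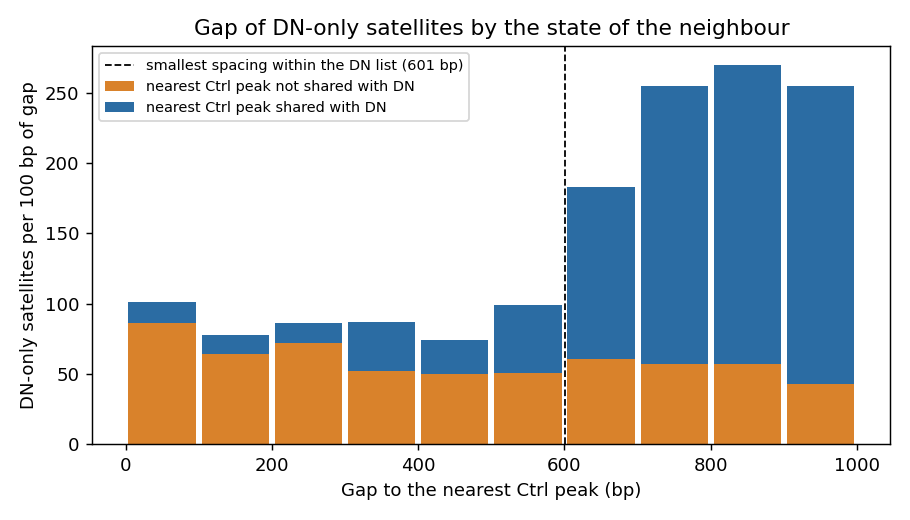
Number of DN-only satellites (vertical axis) in bins of 100 bp of the gap to the nearest Ctrl peak (horizontal axis, bp), stacked by whether that Ctrl peak overlaps a DN peak (blue, 895 satellites) or not (orange, 593 satellites). The blue part is small below 600 bp and reaches 198 to 213 satellites per bin above 700 bp, while the orange part declines from 86 to 43, and the dashed line marks 601 bp, the smallest spacing of peaks within the DN list.

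The state of the neighbour separated these 2 levels. The nearest Ctrl peak itself overlapped a DN peak (shared neighbour) for 895 satellites, which is 60.1% (95% interval 57.6 to 62.6), and did not (unshared neighbour) for 593. Among all 16466 Ctrl peaks within the same limits, 68.2% overlapped a DN peak. Satellites beside shared neighbours had a median gap of 786 bp, and those beside unshared neighbours had a median gap of 446 bp. At gaps of 600 bp or less 151 of 527 neighbours were shared, or 28.7% (95% interval 24.8 to 32.7). At gaps over 600 bp 744 of 961 were shared, or 77.4% (95% interval 74.6 to 80.0). The share was thus below that of all Ctrl peaks on the near side and above it on the far side. From 1000 to 2000 bp, outside the limit, it was 83.8%.

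The spacing within each list bears on this directly. No consecutive peaks lay closer than 601 bp in either list, over 17209 pairs in Ctrl and 34864 in DN. A shared neighbour already has a DN peak on it, so a further DN peak can be listed only from 601 bp on from that peak. An unshared neighbour has none, and its satellite can lie at any distance. Beside unshared neighbours the bins of 100 bp held 43 to 86 satellites, highest next to the neighbour, whereas beside shared neighbours they rose from 15 below 100 bp to 212 at 900 bp and over.

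At a shared neighbour, by definition, a DN peak lies on the Ctrl peak, and the satellite is a second DN peak near it. For all 895 of these satellites the next DN peak towards the neighbour was the one that overlapped it (the anchor). The spacing within the DN list leaves little room for a further DN peak in between, so this follows largely from the rule. The distance from satellite to anchor had a median of 751 bp and ran from 601 to 2355 bp, and it was under 800 bp for 575 of them, or 64.2%. The gap limit of 1000 bp and the spacing of at least 601 bp together keep this distance short. Of all 3662 consecutive DN pairs under 1000 bp apart, 2109 were under 800 bp apart. Unlike the 895, these pairs leave out longer distances, so the shares are not on a like base. Because the limits keep the distance to the anchor short, its closeness to the smallest spacing is not read as a result about the satellites. The anchor was the stronger peak in 82.3% of pairs by −log10 q in the DN list (95% interval 79.7 to 84.8) and the wider one in 73.1%. The median percentile was 43.6 for the satellites and 82.5 for the anchors, where 100 is the strongest DN peak. Their median widths were 530 and 1010 bp. All DN peaks that overlapped a Ctrl peak had medians of 81.8 and 1165 bp. Other DN-Specific peaks under 3000 bp wide had 37.3 and 467 bp. An anchor overlaps a Ctrl peak by definition, so its higher rank and larger width are not particular to these pairs.

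The anchors were compared with their Ctrl peaks edge by edge. On the side away from the satellite, the DN edge lay a median of 184 bp beyond the Ctrl edge (95% interval 159 to 223) and was outside it in 83.4% of 895 pairs. On the side of the satellite, it lay a median of 18 bp beyond the Ctrl edge (95% interval 9 to 25) and was outside it in 57.2%. At shared Ctrl peaks without a satellite the median over both edges was 161 bp, and 80.3% of edges were outside. The facing edge follows in part from the rule, since it is the gap less the distance to the anchor and that distance was at least 601 bp. It can reach 398 bp only at the widest gap, and at gaps of 600 bp or less it must lie inside the Ctrl peak. Neither the far edge nor the edges of other shared peaks had such a limit, and 36.3% of far edges passed 398 bp. Nothing is therefore read from the shorter facing edge.

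**Figure D2:**
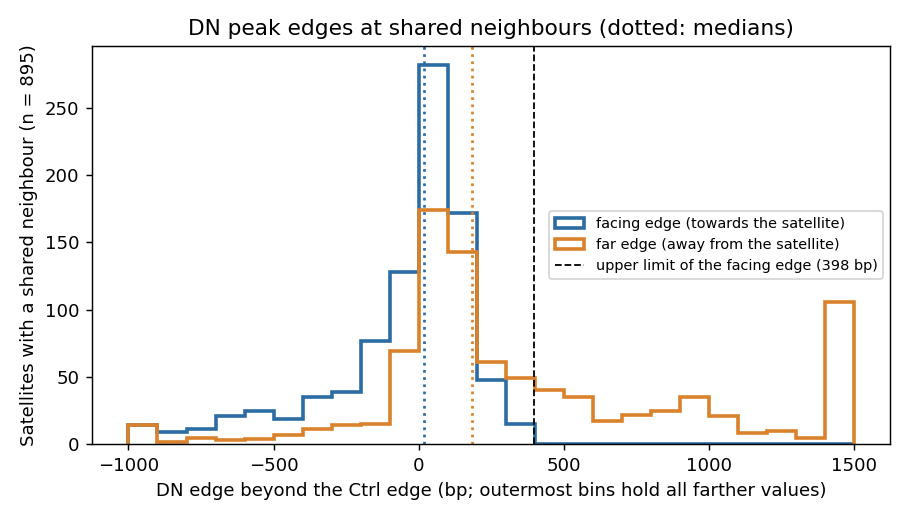
Distance by which the edge of the DN peak lies beyond the edge of the Ctrl peak it overlaps (horizontal axis, bp, negative values lie inside the Ctrl peak), counted over the 895 satellites with a shared neighbour (vertical axis). The edge facing the satellite (blue) is centred near its median of 18 bp and ends below the limit of 398 bp, and the far edge (orange) has a median of 184 bp and a long tail, with all values past the axis gathered in the outermost bins.

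At a smaller set of shared neighbours the DN peak fell short of the Ctrl edge. The 151 satellites with a shared neighbour at 600 bp or less all faced a DN edge inside the Ctrl peak, which the spacing requires, by a median of -366 bp (95% interval -417 to -323). Their neighbours were wider in Ctrl, with a median of 821 bp against 643 bp for the 744 with a larger gap. The DN peak exceeded the Ctrl peak in width for 46.4% of the 151 and for 80.9% of the 744. Over all 895 the DN peak was wider than its Ctrl peak in 75.1% of pairs, with a median width ratio of 1.38 (95% interval 1.30 to 1.44). At shared Ctrl peaks without a satellite these values were 84.3% and 1.88. The anchor's width includes the facing edge, so the rule bears on all of these widths, and the differences are not a result about the satellites. An anchor overlapped 2 or more Ctrl peaks in 74 pairs.

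At unshared neighbours a Ctrl peak and a DN peak, both mostly weak, lay side by side. The satellite was the nearest DN peak of its neighbour for 528 of these 593, or 89.0%. The 593 lay at 541 neighbours, each with 1 nearest DN peak, so at most 541 were possible. With no DN peak on the neighbour, the gap limit makes the satellite mostly the nearest, and nothing is read from this share. Beyond the neighbour the next DN peak was a median of 5366 bp away. The neighbours had a median width of 370 bp and ranked, by −log10 q, at percentile 26.9 of the Ctrl list at the median, close to the 360 bp and 29.1 of all unshared Ctrl peaks. The satellites beside them ranked at percentile 33.0 of the DN list at the median and were wider than the neighbour in 63.6% of pairs. A gap under 100 bp was found for 86 of them (14.5%) but for 15 of the 895 with a shared neighbour (1.68%). In 1 pair, on chromosome 4, the gap was 0 bp. The DN peak there ran from 7391211 to 7391629 and the Ctrl peak from 7391630 to 7391829.

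Neighbours were mostly narrow, as Ctrl peaks are. Of the satellites, 1200 or 80.6% lay beside a Ctrl peak under 1000 bp wide, 270 or 18.1% beside one of 1000 to under 3000 bp and 18 or 1.21% beside one of 3000 bp or more. The shares among all Ctrl peaks were 81.8%, 16.9% and 1.21%. Neighbours ranked above the median −log10 q of the Ctrl list for 660 satellites, or 44.4% (95% interval 41.8 to 46.9), against 50.4% of all Ctrl peaks. Split by state, this was 58.8% for shared neighbours against 61.6% of shared Ctrl peaks. For unshared neighbours it was 22.6% against 26.6% of unshared Ctrl peaks. All 18 wide neighbours were shared, and all 200 Ctrl peaks of that width were shared as well. At 9 of the 18 the DN peak was narrower than the Ctrl peak, and the medians were 3795.5 bp in Ctrl and 3444.5 bp in DN. Beside narrow shared neighbours the medians were 514.5 bp in Ctrl and 814 bp in DN over 632 satellites. Beside shared neighbours of 1000 to under 3000 bp they were 1468 and 1628 bp over 245. The classes were cut on the Ctrl width itself, and the rule bears on the DN width. Nothing is therefore read from the difference between classes.

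Seen from the Ctrl list, 1416 of 16466 Ctrl peaks had a satellite, or 8.60% (95% interval 8.18 to 9.04). The share was 7.80% for shared Ctrl peaks and 10.3% for unshared ones. A shared Ctrl peak already has a DN peak on it, and the spacing bars further DN peaks close by. A lower share there follows in part from the rule. Among shared peaks it was 6.32% under 500 bp, 8.54% from 500 bp, 9.13% from 1000 bp and 10.1% from 2000 to under 3000 bp, where only the narrowest class had an interval apart from the next. For peaks of 3000 bp or more it was 9.0% (95% interval 5.42 to 13.9). The DN peak on a shared Ctrl peak can reach past its edge, so the spacing limit enters into the shares by width too. Stronger Ctrl peaks did not have satellites more often, but they were more often shared, so the same limit enters. Of shared Ctrl peaks 61.6% ranked above the median −log10 q, and of unshared ones 26.6%. In steps of 10 percentiles of the Ctrl list by −log10 q the share was 9.67% in the weakest step, at most 11.1% from percentile 20 to 30, and 7.03% in the strongest step (95% interval 5.86 to 8.36).

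**Figure D3:**
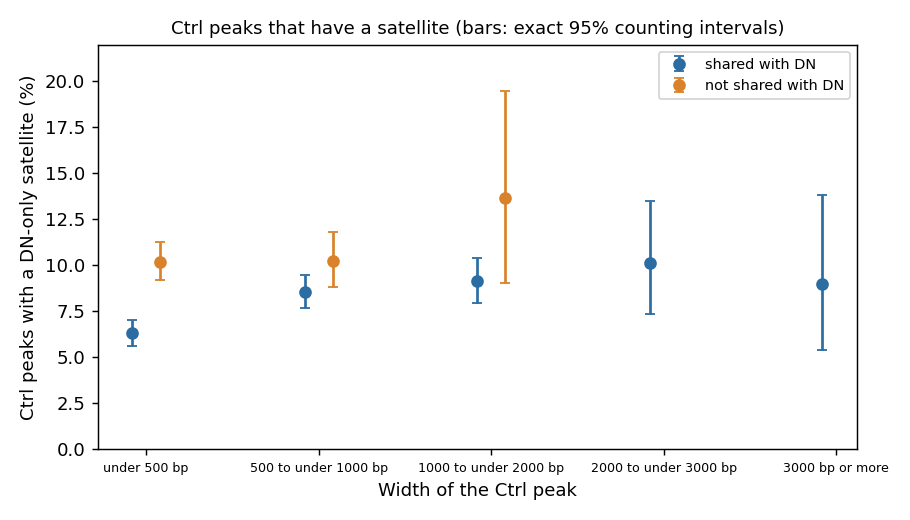
Share of Ctrl peaks that have a DN-only satellite (vertical axis, percent) by the width of the Ctrl peak (horizontal axis), for Ctrl peaks that overlap a DN peak (blue) and those that do not (orange), with exact 95% counting intervals and classes of fewer than 20 peaks left out. Shared peaks go from 6.32% in the narrowest class to 10.1% from 2000 to under 3000 bp, and unshared peaks lie at 10.2% in both classes under 1000 bp. The smallest spacing of DN peaks bears on the shares of shared peaks.

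Most neighbours had a single satellite, and no expected number of neighbours with a second was worked out. The 1488 satellites lay at 1416 Ctrl peaks, of which 72 had 2 satellites and the others 1. In 71 of the 72 the satellites were on opposite sides, at 20 shared and 51 unshared neighbours. The DN spacing of at least 601 bp leaves little room for 2 satellites on the same side within 1000 bp. The opposite sides thus follow largely from the rule. The exception was an unshared Ctrl peak on chromosome 3 from 7169569 to 7170263, singled out after its values were seen, with satellites at gaps of 11 and 957 bp on the same side. Satellites lay to the right of the neighbour in 739 cases and to the left in 749. A further Ctrl peak within 1000 bp on the other side was found for 47 satellites (3.16%), so most did not fill a space between 2 Ctrl peaks.

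The satellites themselves were weak and short. Fold here is the peak caller's average over a genome-wide background and −log10 q its measure of confidence, and both belong to the DN list. The median fold was 3.17, with quartiles of 2.99 and 3.43 and a highest value of 5.95. The median −log10 q was 1.80 and the median percentile 38.5 (95% interval 37.0 to 40.8). Other DN-Specific peaks under 3000 bp wide, 21777 in number, had a median percentile of 37.3, and DN peaks that overlapped a Ctrl peak had 81.8. The study's q-value setting of 0.0001 is a −log10 q of 4, while the listed values are averages over each peak. A −log10 q of at least 4 was reached by 54 satellites, or 3.63% (95% interval 2.74 to 4.71), by 5.17% of the other DN-Specific peaks (95% interval 4.88 to 5.47) and by 53.8% of overlapped DN peaks. Around the 37.3 of other DN-Specific peaks the satellites lay on both sides, at a median percentile of 43.6 beside shared neighbours (95% interval 40.7 to 45.3) and 33.0 beside unshared ones (95% interval 30.7 to 35.8). The 37.3 and the 5.17% pool all larger gaps. DN-Specific peaks at gaps of 1000 to 2000 bp had a median percentile of 39.8 and those at 2000 to 3000 bp 38.5.

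In width they were somewhat larger than all other DN-Specific peaks and close to those just outside the gap limit. The median was 524 bp (95% interval 503 to 551) against 467 bp (95% interval 461 to 473), and overlapped DN peaks had 1165 bp. DN-Specific peaks at gaps of 1000 to 2000 bp had 507 bp and those at 2000 to 3000 bp 496 bp. Satellites of 1000 bp or more numbered 241, or 16.2% (95% interval 14.4 to 18.2), against 11.3% of other DN-Specific peaks (95% interval 10.8 to 11.7). The share was 19.0% beside shared neighbours (95% interval 16.5 to 21.7) and 12.0% beside unshared ones (95% interval 9.47 to 14.9). The narrowest width in the list, 200 bp, was that of 123 satellites (8.27%) and of 11.2% of the other DN-Specific peaks. The 11.3% and the 11.2% pool all larger gaps. Such shares were not worked out for gaps of 1000 to 2000 bp alone. Width varied little with the gap, with a median of 521 bp at gaps of 600 bp or less and 525 bp above.

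Depth limits how these peaks can be read. The background of the DN list was solved from its lowest fold, 2.87, with the same constant added to signal and background. At 7 fragments this gave 1.79, for which the caller's Poisson formula returns the lowest listed −log10 p, 3.27. The 7 was chosen for that match. On that scale the satellites had a median of 7.83 fragments on average over the peak, and 107 of them (7.19%) were at the minimum of 7. The lowest Ctrl peak has no single solution. Under the same formula it came to 7.97 fragments if its scaled depth was 7, to 8.72 or 7.48 if that was 6 or 8, and to 17.9 if it was 3, with the DN background taken for Ctrl before scaling. Why the Ctrl depth appears scaled is not stated in the sources used here. A mean depth of at least 8 was reached by 647 satellites, or 43.5% (95% interval 40.9 to 46.0), by 48.6% of those with a shared neighbour and by 35.8% of those with an unshared one. It was reached by 41.8% of other DN-Specific peaks, and by 43.6% of those at gaps of 1000 to 2000 bp. The lists hold no read counts, so a signal in Ctrl just under its own threshold at these sites cannot be told apart from none.

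To see whether satellites were particular to DN, the same rule was applied with the lists exchanged. It gave 757 Ctrl-only satellites beside DN peaks, or 14.4% of the 5243 Ctrl-Specific peaks, which are 31.8% of Ctrl peaks. DN-only satellites were 1.97 times as many (95% interval 1.80 to 2.15), less than the ratio of 4.45 for specific peaks as a whole. With shared neighbours there were 895 DN-only and 212 Ctrl-only satellites, a ratio of 4.22 (95% interval 3.63 to 4.93), whose interval holds the 4.45 of specific peaks as a whole. Of the Ctrl-only satellites 28.0% had a shared neighbour, against 31.3% of all DN peaks that were shared. With unshared neighbours there were 593 and 545, and there both counts come from much the same side-by-side pairs, so their likeness follows from the rule. Ctrl-only satellites had a median gap of 500 bp and a median width of 370 bp. The DN list is the longer one, and thinning it alone lowers the ratio by construction. With DN peaks of at least 8 fragments only, the ratio was 1.18 (647 and 546) over all neighbours and 1.34 (363 and 271) with shared neighbours. With the DN list shortened by −log10 q to the number of Ctrl peaks it was 0.99 (516 and 520) and 0.98 (280 and 287).

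**Figure D4:**
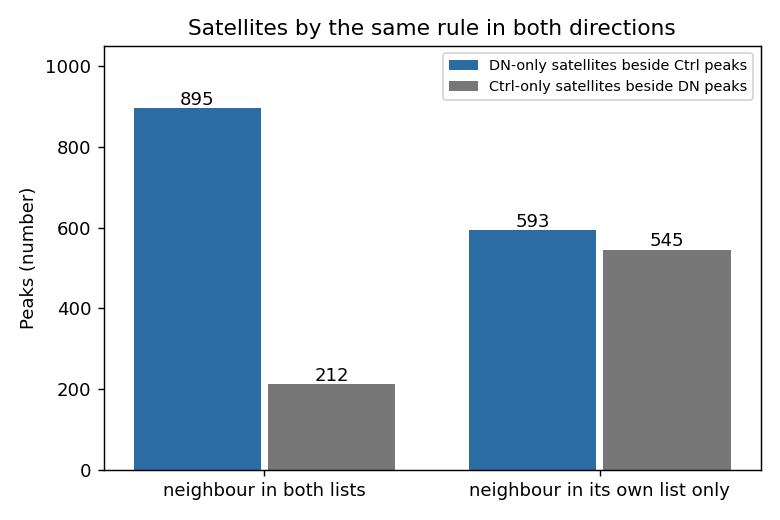
Number of peaks (vertical axis) that meet the satellite rule in each direction, DN-only beside Ctrl peaks (blue) and Ctrl-only beside DN peaks (grey), by whether the neighbour is in both lists or only in its own list. Beside shared neighbours there are 895 against 212, and beside unshared neighbours 593 against 545. All listed peaks are counted, and the DN list is the longer one.

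The DN peaks around satellites include those that the rule brings in. Within 5 kb there were on average 1.77 other DN peaks around a satellite, 2.10 beside shared and 1.26 beside unshared neighbours, against 0.947 around other DN-Specific peaks and 1.23 around overlapped DN peaks. At shared neighbours the anchor is among those counted. Another DN peak lay under 1000 bp away from 815 of the 895 satellites with a shared neighbour (91.1%). At unshared neighbours, with no anchor, this held for 88 of 593 (14.8%, 95% interval 12.1 to 18.0), close to the 13.7% of other DN-Specific peaks.

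Satellites were found on all 25 chromosomes, from 24 on chromosome 4 to 120 on chromosome 22. They made up 10.5% of DN-Specific peaks on chromosome 22 (95% interval 8.80 to 12.4), and from 4.48% on chromosome 23 to 7.93% on chromosome 20 among the others. The first 3 Mb of chromosome 22, a region chosen after its values were seen, held 69 of the 120. There 21.7% of 318 DN-Specific peaks were satellites (95% interval 17.3 to 26.6), and on the rest of the chromosome 6.20% of 823 were. This stretch was also dense in Ctrl peaks, with 384 of them against 458 on the rest of chromosome 22, and 64 of the 384 (16.7%) had a satellite, against 10.5% of the 458. Of its 69 satellites 47 had a shared neighbour, or 68.1%, which is below the 87.0% of its Ctrl peaks that were shared. On the rest of the chromosome these shares were 52.9% and 62.9%. The median width of the 69 satellites was 739 bp. The 1 Mb window with the most satellites was from 2000001 to 3000000 on chromosome 22, with 28 among 150 DN-Specific peaks. The first one outside that chromosome was from 25000001 to 26000000 on chromosome 16, with 13 among 71. As a share of DN-Specific peaks these windows were alike. A window with any satellite held 2 at the median.

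**Figure D5:**
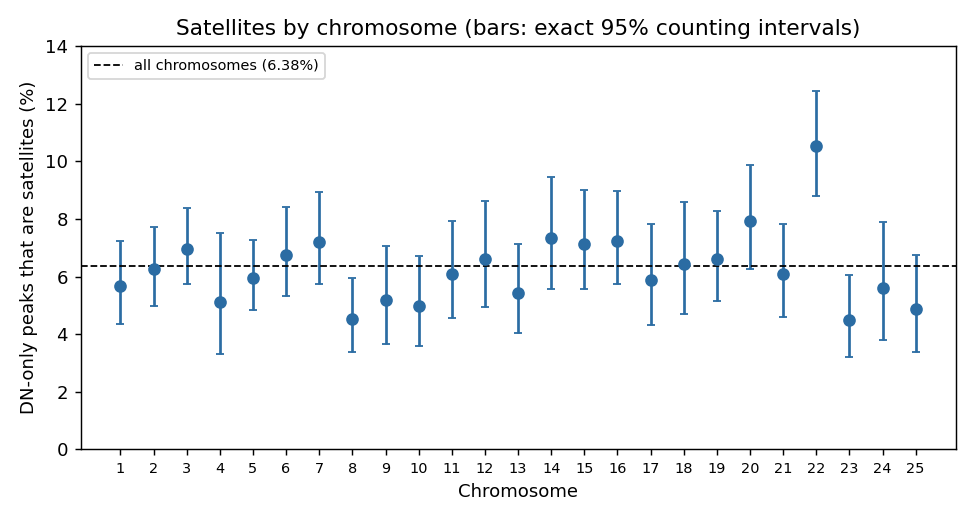
Share of DN-Specific peaks that are satellites (vertical axis, percent) on each chromosome (horizontal axis), with exact 95% counting intervals and a dashed line at the 6.38% of all chromosomes. Chromosome 22 stands at 10.5% with an interval from 8.80 to 12.4, and the other chromosomes lie between 4.48 and 7.93%. Chromosome 4 is counted up to position 27000000.

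The strongest satellites showed both arrangements. The highest −log10 q, 8.19, belonged to a peak on chromosome 22 from 12338559 to 12339101 (fold 5.78), 693 bp to the left of a shared Ctrl peak from 12339795 to 12340613. That Ctrl peak ranked at percentile 42.7 of its list, and the DN peak on it, from 12339785 to 12340826, at percentile 64.7 of the DN list. Here the satellite outranked its anchor. It did so as well on chromosome 16 from 13685687 to 13686238 (fold 5.95, −log10 q 8.12), where the Ctrl neighbour spanned 789 bp and the DN peak on it only 200 bp. On chromosome 23 the satellite from 33986185 to 33986731 had a −log10 q of 7.34 and stood 757 bp from a shared Ctrl peak of 345 bp, whose DN counterpart ranked higher, at percentile 96.3.

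The next 2 satellites by −log10 q had unshared neighbours. The peak on chromosome 25 from 16880951 to 16881666 had a −log10 q of 6.81 and lay 8 bp from a Ctrl peak of 200 bp at percentile 13.0. The peak on chromosome 6 from 17998698 to 17999593 had a −log10 q of 6.50 and lay 114 bp from a Ctrl peak of 691 bp at percentile 44.1. The third by this measure among unshared neighbours was on chromosome 14 from 46028366 to 46028745, with a −log10 q of 6.31 and a gap of 711 bp. These 3 were chosen by −log10 q, so their high percentiles in the DN list, between 91.3 and 92.7, follow from the choice. Their Ctrl neighbours ranked under the middle of the Ctrl list. Most unshared Ctrl peaks did so too, since 26.6% of them ranked above the median.

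At the 3 strongest neighbours, chosen by their rank in the Ctrl list, the satellites ranked between percentiles 3.92 and 50.6 of the DN list. The median of all satellites was 38.5. On chromosome 2 a Ctrl peak of 3704 bp from 19429091 to 19432794, with fold 24.1 and percentile 99.9, had a satellite of 285 bp from 19428106 to 19428390, at a gap of 700 bp and percentile 50.6. The DN peak on that neighbour was shorter, at 2464 bp, and its far edge lay inside the Ctrl edge, at -1215 bp. On chromosome 11 a Ctrl peak of 3887 bp from 29947493 to 29951379 had a satellite of 561 bp at a gap of 711 bp and percentile 39.6, and the DN peak there was 4105 bp wide. On chromosome 3 a Ctrl peak of 227 bp from 62628263 to 62628489 ranked at percentile 98.9 and had a satellite of 351 bp at a gap of 956 bp, whose fold was the lowest in the list. The strongest Ctrl peak with satellites on both sides lay on chromosome 11 from 25383055 to 25384064. Its satellites of 210 and 694 bp stood 829 bp to the left and 815 bp to the right, while the DN peak between them was 1324 bp wide against 1010 bp in Ctrl. The next such peaks were on chromosome 21 from 5080509 to 5082444 and on chromosome 8 from 44934731 to 44935057, with gaps of 814 and 709 bp and of 997 and 840 bp.

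All 3 of the widest satellites had unshared neighbours under 300 bp wide. Wide satellites as a whole did not share this. A width of 2000 bp or more was found for 20 of the 895 satellites with a shared neighbour (2.23%). It was found for 7 of the 593 with an unshared one (1.18%). The 3 widest measured 2716 bp on chromosome 14 from 14807046 to 14809761, 2715 bp on chromosome 14 from 16325636 to 16328350 and 2704 bp on chromosome 7 from 26047728 to 26050431, at gaps of 758, 10 and 534 bp. The narrowest DN peak left out by the width limit measured 3045 bp, on chromosome 9 from 68494 to 71538. Just inside the gap limit, at 999 bp, were among others peaks on chromosomes 21 (percentile 52.7) and 24 (percentile 40.0), and just outside it, at 1000 bp, were peaks on chromosomes 8 (percentile 70.8) and 12 (percentile 48.2).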

How the data were processed

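Per the labels and the study's methods, the authors used Trimmomatic 0.39 for read trimming, STAR 2.7.8a for unique alignments to GRCz11 and Picard 2.25.0 against duplicates, and subsampled both conditions to equal numbers of read pairs. They called broad peaks per condition with MACS2 (q-value setting 0.0001, no model, no local background) and removed peaks outside defined chromosomes. The deposited lists hold peaks whose listed q-value is weaker than that setting. Satellites go down to a −log10 q of 1.31, and most of them were weaker than the setting on the listed value. No read counts stand in the lists. In the deposited lists, fold is the ratio of signal to a background taken over the whole genome. For the depth estimates a constant was taken as added to both. The p-value and the q-value of each deposited peak stand as −log10, and the deposited score, made from the −log10 q, was not used. In broad mode these are region averages, so a listed q-value weaker than the setting does not show that a peak failed it. Whether the input libraries entered the calls is not given in the sources used here, which leaves the exact background behind fold and depth unknown. Without a local background, regions with high input can also be listed.

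Positions are 1-based. Overlap needed 1 bp. A gap is the number of bases between 2 peaks, and ties went to the left neighbour. Percentiles are ranks by −log10 q within a whole list. Shares have Clopper-Pearson intervals, ratios conditional binomial ones and medians order-statistic ones. The tools were scipy 1.17.1, pandas 2.3.3 and numpy 2.4.6 under Python 3.11.15, with matplotlib 3.10.9 for plots. The search was tested on simulated data, where 100% of 7393 planted satellites were found with the right gap, side and neighbour. The simulated Ctrl peaks stood far apart with at most 1 satellite each. Ties, competing neighbours, neighbours with 2 satellites and the edges of anchors were therefore not tested. Named regions are the 5 strongest and 3 widest satellites, the 3 with the strongest neighbours, the 3 strongest with an unshared neighbour, the 3 strongest neighbours with most satellites, and peaks at the limits. Members and lists were chosen with earlier results of these data known.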

Additional observations from a re-analysis of the deposited data

How the results depend on the processing

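Shares, medians and ratios are called changed outside the 95% counting interval of the reported value, and numbers of peaks when they moved by more than 1.5 times. Strong neighbours are those above the median −log10 q of the Ctrl list. Of 126 values under 15 alternatives, 65 did not change, 57 changed and 4 reversed. Leaving out the first 3 Mb of chromosome 22 and the alternatives for shared-neighbour ratios and edges were chosen after seeing the data. Filters on 1 list shorten that list only, which lowers its count by construction. A limit on gap, width, −log10 q or depth also acts by construction on the gap, width, rank or neighbour strength reported under it. A changed definition of wide, narrow or shared likewise acts on its own share. A filter on DN peaks also removes DN peaks that lie on Ctrl peaks, so a shared neighbour can count as unshared under it. The share of shared neighbours under such a filter is therefore not a result about stronger satellites. For the remaining changes the cause was not tested.

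With a gap under 500 bp there were 426 satellites (1.83% of DN-Specific peaks), with a median gap of 238 bp, a median percentile of 32.1 and neighbours that were shared in 23.9%, wide in 0.70%, narrow in 85.2% and strong in 23.7%, and the ratio to Ctrl-only satellites was 1.13. With a gap under 2000 bp the values were 3871 satellites (16.6%), a median gap of 1163 bp, 74.7% shared, 78.1% narrow, 51.4% strong and a ratio of 3.06. With a width under 1000 bp they were 5.35%, a median width of 443 bp and a ratio of 1.73.

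With DN peaks of a −log10 q of at least 4 only, 54 satellites (4.56%) were left, with a median width of 452.5 bp, a median percentile of 85.6, 31.5% shared, 0 wide, 85.2% narrow and 35.2% strong neighbours. In the full DN list 31 of these 54 had a shared neighbour. The ratio reversed to 0.17, and to 0.059 with shared neighbours (17 and 286), where the median facing edge was 76 bp. With DN peaks of at least 8 fragments, 647 satellites had 56.1% shared, 77.7% narrow and 49.8% strong neighbours, a median percentile of 59.9, ratios of 1.18 and 1.34 and a facing edge of 29 bp. In the full DN list 435 of these 647 had a shared neighbour. With the DN list shortened to the Ctrl number, 516 satellites had a median gap of 731.5 bp, a median width of 491.5 bp, a median percentile of 63.6, 54.3% shared, 77.5% narrow and 49.4% strong neighbours and a facing edge of 35.5 bp, and the ratios reversed to 0.99 and 0.98. With Ctrl peaks of a −log10 q of at least 2 only, 818 satellites (3.03%) had a median gap of 779 bp, a median width of 578 bp, a median percentile of 45.2, 80.3% shared, 2.20% wide, 71.5% narrow and 97.4% strong neighbours and a ratio of 4.07.

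With 50% of the Ctrl peak overlapped as the condition, 50.6% of neighbours were shared. With 2000 bp as wide 4.03% were wide, and with 500 bp as narrow 46.2% were narrow. Merging peaks under 200 bp apart joined none, since none lay that close.

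No paired analysis was possible because there is 1 library per group, which also leaves no replicate to omit. Alternatives for genes were not run, since no annotation on GRCz11 was used here.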
